A study of Sus scrofa with 12 samples.

Results

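The genes described here are the CD antigens and a set of leukocyte and endothelial markers. They were taken by symbol from an expression table of porcine oviduct epithelial cells: every symbol formed of CD, a number and at most a letter and a digit, the MS4A and granzyme families, and single genes such as PTPRC, TYROBP, PECAM1, KDR and VWF, leaving out CDH5 and CSF1R. Of 30461 gene rows, 71 matched, and 40 of these passed the filter on low counts and were tested. Only 13259 of the gene rows (43.5%) carried a symbol, so a gene with no matched row may still be present in an unnamed row. Bulk 3′ mRNA sequencing was applied to 12 libraries in 3 groups of 4. Fresh cells were single cells obtained by scraping, with no culture named. Spheroids, which are cultured cells grouped into 3-dimensional clusters, were formed in DMEM/F12, a basal culture medium (library names carry FBS), or in a medium called incubation medium (library names carry Diff). The labels give neither the composition of the media nor the number, age or cycle stage of the animals, and all 12 libraries are labelled as oviduct epithelial cells with no genotype or drug. Nothing in the labels says that replicates came from separate animals or cultures, so p-values measure the spread between these libraries, which may be technical.

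CD numbers are assigned to cell surface molecules recognised by defined antibodies, so the name says where a protein sits and not what it does. Some are found on most cells, such as the tetraspanins that organise membrane domains and the regulators that keep complement from lysing the body's own cells. Others are restricted to blood cells or vessels and are used to detect these in a tissue; the oviduct mucosa normally holds lymphocytes and macrophages among and beneath its epithelial cells.

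Total counts ranged from 5045187 to 8603774 per library. The epithelial markers with a row (5 of 6 listed) summed to 2255 to 2512 CPM (counts per 1000000, with library sizes scaled by TMM, a factor that corrects for composition) in fresh cells, 3520 to 3955 in DMEM/F12 spheroids and 3220 to 5075 in incubation medium spheroids. The stromal markers with a row (4 of 8 listed) summed to 58.5 to 92.5, 11.2 to 34.0 and 5.78 to 11.3 CPM. The multiciliated cell markers with a row, FOXJ1 and TPPP3 (2 of 5 listed), summed to 822 to 948, 108 to 269 and 99 to 187 CPM. Their part in the results below was not tested. A gene is called where edgeR's adjusted p, taken over all 14070 genes tested, was under 0.05. The epithelial sum hides a split: EPCAM was lower in DMEM/F12 than in fresh cells (log2 fold change -0.52, adjusted p = 0.00741). It was not called in incubation medium (-0.34, adjusted p = 0.0625), and the other 4 markers were called higher in each medium. The stromal sum also hides a split. COL3A1 and COL1A2 fell in DMEM/F12 (-5.33 and -3.21, adjusted p = 7.06e-09 and 6.19e-06). COL1A1 (-0.50, adjusted p = 0.32) and PDGFRA (0.67, adjusted p = 0.129) were not called there. All 4 stromal markers fell in incubation medium. The epithelial sum of 5075 CPM was incubation medium replicate 4, with the other libraries there at 3220 to 3873. CPM in 3′ libraries are not scaled to transcript length, and levels are not compared between genes.

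Against fresh cells, DMEM/F12 spheroids had 25 of the 40 tested members called (62.5%), beside 70.7% of all genes tested. Of these, 12 were higher (35.1% of all genes) and 13 lower (35.7%), and the groups did not overlap for 25 members (65.4% of all genes). Incubation medium spheroids had 28 members called against fresh cells (70.0%, beside 71.7% of all genes), 13 higher (35.8%) and 15 lower (35.8%), with 25 members not overlapping (65.0%). The media differed from each other in 11 members (27.5%, beside 25% of all genes), of which 5 were higher in incubation medium (12.7%) and 6 lower (12.3%); 8 did not overlap (27%). Nothing particular to the members is read from these shares. The counts by role group and by list below stand beside the same shares of all genes. The groups are small and no set was tested, so nothing particular to a group is read from its count. The median log2 fold change of the tested members was 0.05, -0.08 and -0.15 in the 3 comparisons, beside -0.01, -0.01 and 0.00 for all genes. Both comparisons with fresh cells use the same 4 fresh libraries. Without replicate 2 of both spheroid groups, which was high in leukocyte genes, 11 members were higher and 15 lower in DMEM/F12 than in fresh cells (65% called, beside 67.4% of all genes, 33.4% higher and 34% lower). Leaving it out was chosen after its values were seen. Larger falls of leukocyte genes in that fit, here and below, follow from the choice and give no separate support. In incubation medium against fresh cells, 12 were then higher and 17 lower (72.5%, beside 68.3% of all genes, 34.1% higher and 34.3% lower), and between the media 1 was higher and 8 lower (22.5%, beside 15.4% of all genes, 7.78% higher and 7.64% lower). With the replicate number as a block, the media differed in 6 members upward and 12 downward (45% of members, beside 32.8% of all genes; 16.6% of all genes were higher and 16.2% lower).

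**Figure D1:**
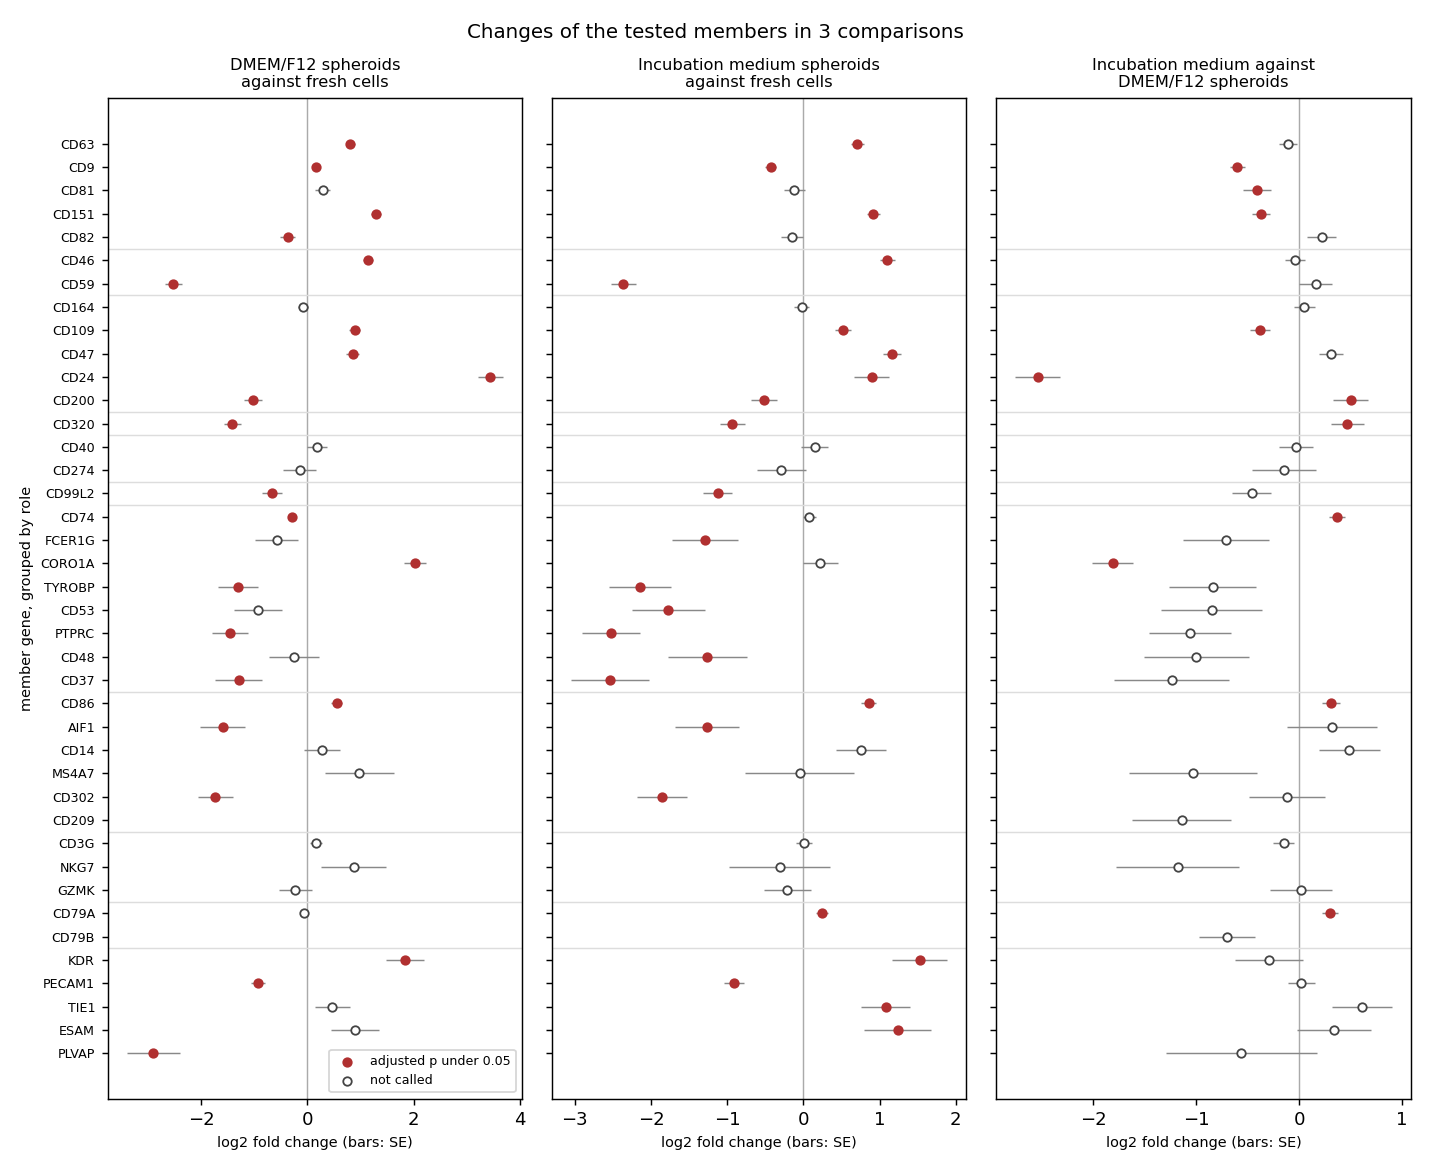
Log2 fold changes (x axis; bars are standard errors) of the 40 tested members (y axis, grouped by role and divided by grey lines) in the 3 comparisons, each panel with its own x scale; filled points have an adjusted p under 0.05. A comparison in which a group lay at or under 3 counts in every library is not drawn (CD209 and CD79B against fresh cells, PLVAP in incubation medium against fresh cells). CD24 has the largest drawn rise in DMEM/F12 spheroids, and CD59 and PLVAP lie lowest there.

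Among the 5 tetraspanins grouped here, CD9, CD63, CD81, CD82 and CD151, 3 rose and 1 fell in DMEM/F12 spheroids. In incubation medium 2 rose and 1 fell, and 3 were lower there than in DMEM/F12. The leukocyte tetraspanins CD53 and CD37 are counted below with the pan-leukocyte members. Of these, CD37 fell in both media and CD53 in incubation medium. CD63 and CD151 rose in both media, while CD9 was higher than in fresh cells in one medium and lower in the other.

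CD63 (ENSSSCG00025036880), a tetraspanin of late endosomes and exosomes, stood at 784, 697, 819 and 714 CPM in fresh cells for replicates 1 to 4. It stood at 1364, 1203, 1525 and 1211 CPM in DMEM/F12 spheroids and at 1244, 1202, 1300 and 1180 CPM in incubation medium. Every spheroid library lay above every fresh library (log2 fold change 0.81, SE 0.09, adjusted p = 1.61e-06 in DMEM/F12, and 0.71, SE 0.09, adjusted p = 6.12e-06 in incubation medium). The media were not called different (-0.11, adjusted p = 0.421).

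CD151 (ENSSSCG00025014656), a partner of laminin-binding integrins, was measured at 94.0, 116, 98.7 and 104 CPM in fresh cells. Its level was 252, 247, 238 and 270 CPM in DMEM/F12 and 181, 189, 190 and 220 CPM in incubation medium, so the 3 groups did not overlap. The log2 fold change was 1.29 (SE 0.09, adjusted p = 1.52e-08) in DMEM/F12 and 0.92 (SE 0.09, adjusted p = 3.89e-07) in incubation medium. The difference between the media was -0.37 (SE 0.09, adjusted p = 0.00583).

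CD9 (ENSSSCG00025030390), which is abundant on extracellular vesicles and on the egg surface, was at 854, 861, 855 and 973 CPM in fresh cells. DMEM/F12 spheroids had 1078, 944, 1029 and 939 CPM, overlapping the fresh cells, and incubation medium spheroids had 663, 642, 668 and 664 CPM, below every other library. The rise in DMEM/F12 (log2 fold change 0.17, adjusted p = 0.0491) was not called with the replicate block (0.17, adjusted p = 0.0587, range over alternatives 0.0103 to 0.101) and lost its call without fresh replicate 1, 2 or 3 or DMEM/F12 replicate 1 or 3. CD9 fell in incubation medium by 0.43 on the log2 scale (SE 0.07, adjusted p = 0.000122), and the media differed by -0.60 (SE 0.07, adjusted p = 6.7e-05).

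CD81 (ENSSSCG00025024584), a vesicle tetraspanin and part of the B cell coreceptor, had 448 to 556 CPM in fresh cells, 486 to 700 in DMEM/F12 and 389 to 598 in incubation medium, with overlap throughout. It was not called against fresh cells (0.29, adjusted p = 0.0752, and -0.12, adjusted p = 0.459). Its value in DMEM/F12 was called with the replicate block (0.29, adjusted p = 0.0199) and without DMEM/F12 replicate 3 (0.40, adjusted p = 0.015). It was also called with library totals (0.37, adjusted p = 0.0295), no filter (0.37, adjusted p = 0.0214) and the groups compared alone (0.29, adjusted p = 0.0472). The adjusted p ranged over alternatives from 0.015 to 0.172. It was lower in incubation medium than in DMEM/F12 (-0.41, adjusted p = 0.0442), a call kept only without DMEM/F12 replicate 3 or incubation medium replicate 4 among the 8 fits that left out a library, and lost without replicate 2 of both spheroid groups (-0.27, adjusted p = 0.285; range 0.00538 to 0.285).

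CD82 (ENSSSCG00025007877), studied as a suppressor of cell migration, had 46.5, 49.3, 54.6 and 72.9 CPM in fresh cells and 44.2, 38.9, 44.5 and 45.1 in DMEM/F12. It fell by 0.37 on the log2 scale there (adjusted p = 0.0300), but the call was lost in 5 of 8 fits without a library (each DMEM/F12 library or fresh replicate 4), with -0.21 (adjusted p = 0.133, range over alternatives 0.00584 to 0.133) without fresh replicate 4. In incubation medium it had 43.8 to 61.5 CPM and was not called (-0.15, adjusted p = 0.338).

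Of 23 listed tetraspanins and partners outside the rule, 17 were tested; 11 rose and 4 fell in DMEM/F12 and 8 rose and 3 fell in incubation medium. The integrin chain ITGB1 rose from 118 ± 10.1 CPM (SD, n = 4) to 435 ± 84.9 and 321 ± 8.94 (log2 fold changes 1.88 and 1.44, adjusted p = 6.94e-09 and 7.72e-08). TSPAN1 fell from 1734 ± 123 to 1019 ± 206 and 958 ± 120 CPM (-0.77 and -0.86, adjusted p = 8.44e-05 and 3.03e-05), so members of the tetraspanin family moved both ways.

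Both complement regulators with a row changed, in opposite directions and alike in both media by sign. CD46 (ENSSSCG00025045326), the membrane cofactor that helps to cleave C3b and C4b, was at 84.8, 94.3, 98.0 and 83.7 CPM in fresh cells. In DMEM/F12 it was at 172, 177, 235 and 211 CPM and in incubation medium at 181, 191, 195 and 206 CPM, above every fresh library (1.14, SE 0.1, adjusted p = 2.55e-07, and 1.1, SE 0.1, adjusted p = 3.59e-07).

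CD59 (ENSSSCG00025018939), a lipid-anchored protein that blocks the membrane attack complex, was at 176, 176, 204 and 212 CPM in fresh cells. It was at 31.4, 28.7, 31.4 and 42.0 CPM in DMEM/F12 and at 35.8, 33.4, 29.7 and 50.6 CPM in incubation medium, so every spheroid library lay far below every fresh one. The log2 fold changes were -2.52 (SE 0.16, adjusted p = 7.21e-09) and -2.36 (SE 0.16, adjusted p = 1.21e-08). The media were not called different for CD46 (-0.04, SE 0.1, adjusted p = 0.815) or CD59 (0.16, SE 0.16, adjusted p = 0.502).

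Of 12 listed complement components and soluble regulators, 7 were tested; 1 rose and 4 fell in DMEM/F12, and 6 fell in incubation medium. SERPING1, the C1 inhibitor, fell to 108 ± 34.7 and 46.7 ± 14.5 CPM (-1.48 and -2.68, adjusted p = 0.000122 and 6.16e-07). The central component C3 fell from 226 ± 73.4 to 90.6 ± 24.9 and 61.3 ± 39.0 CPM (-1.32 and -1.89, adjusted p = 0.00412 and 0.00031). CFD, the protease factor D, was at 969 ± 127, 909 ± 114 and 242 ± 11 CPM and was lower in incubation medium than in DMEM/F12 (-1.91, adjusted p = 1.45e-07).

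The adhesion and surface glycoproteins had 3 of 5 tested members higher and 1 lower in each medium. Of all genes, 35.1% were higher in DMEM/F12 and 35.8% in incubation medium. Among the 40 members, CD24 differed most between the media. CD24 (ENSSSCG00025068237), a small mucin-like protein held by a lipid anchor and used as a marker of epithelial progenitors, was at 26.6, 30.7, 26.4 and 24.3 CPM in fresh cells. It reached 269, 247, 435 and 221 CPM in DMEM/F12 and 45.3, 55.8, 67.4 and 33.2 CPM in incubation medium. The 3 groups did not overlap, with replicate 3 highest and replicate 4 lowest in both media. The log2 fold change was 3.44 (SE 0.24, adjusted p = 1.8e-08) in DMEM/F12 and 0.90 (SE 0.23, adjusted p = 0.00306) in incubation medium, and the media differed by -2.54 (SE 0.22, adjusted p = 5.19e-06).

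CD47 (ENSSSCG00025039970), the ligand of SIRPA that restrains phagocytes, was at 99.9, 114, 101 and 110 CPM in fresh cells, 161, 208, 218 and 177 in DMEM/F12 and 206, 267, 274 and 201 in incubation medium. All spheroid libraries lay above the fresh ones (0.85, SE 0.12, adjusted p = 2.56e-05, and 1.16, SE 0.12, adjusted p = 1.19e-06). The media overlapped and were not called different (0.31, adjusted p = 0.0752), but were with the replicate block (0.31, adjusted p = 0.0142), and when DMEM/F12 replicate 3 (0.38, adjusted p = 0.0456) or incubation medium replicate 4 (0.39, adjusted p = 0.0362) was left out (range over alternatives 0.0142 to 0.209).

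CD109 (ENSSSCG00025024823), a lipid-anchored coreceptor that dampens TGF-beta signalling, was at 177, 140, 160 and 157 CPM in fresh cells. It was at 311, 263, 320 and 285 CPM in DMEM/F12 and at 249, 196, 226 and 237 CPM in incubation medium, with no overlap between any groups. It rose by 0.89 (SE 0.1, adjusted p = 1.65e-06) and 0.52 (SE 0.1, adjusted p = 0.000276), and was lower in incubation medium than in DMEM/F12 (-0.38, SE 0.1, adjusted p = 0.0112).

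CD164 (ENSSSCG00025053680), a sialomucin of endosomes and the cell surface, had 389 to 429 CPM in fresh cells, 342 to 451 in DMEM/F12 and 353 to 448 in incubation medium. It was not called in any comparison (log2 fold changes -0.08, -0.02 and 0.05, each with SE 0.1; adjusted p = 0.495, 0.836 and 0.739).

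CD200 (ENSSSCG00025047315), a ligand that inhibits myeloid cells through its receptor, was named after its values were seen. It had 21.5 to 25.8 CPM in fresh cells, 8.25 to 15.2 in DMEM/F12 and 12.8 to 19.8 in incubation medium, below the fresh libraries in both media. It fell by 1.02 (adjusted p = 0.000108) and by 0.52 (adjusted p = 0.0129) on the log2 scale. The difference between the media (0.50, adjusted p = 0.0490) was kept only without DMEM/F12 replicate 2 or incubation medium replicate 1 among the 8 fits that left out a library.

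CD320 (ENSSSCG00025017165), the receptor that takes up vitamin B12 bound to transcobalamin, was at 440, 388, 415 and 400 CPM in fresh cells. It was at 193, 153, 98.7 and 174 CPM in DMEM/F12 and 245, 209, 179 and 227 CPM in incubation medium, all below the fresh libraries. It fell by 1.41 (SE 0.16, adjusted p = 2.67e-06) and by 0.93 (SE 0.16, adjusted p = 0.000118). The media overlapped; their difference (0.47, adjusted p = 0.0442) was kept only without DMEM/F12 replicate 1 or 4 or incubation medium replicate 3 among the 8 fits that left out a library, with 0.31 (adjusted p = 0.0628, range over alternatives 0.00499 to 0.136) without DMEM/F12 replicate 3.

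CD99L2 (ENSSSCG00025069872), an adhesion protein related to CD99, fell from 10.4 ± 1.13 CPM to 6.60 ± 1.02 and 4.80 ± 1.19 (-0.66 and -1.12, adjusted p = 0.00561 and 0.000112). The media were called different for it only without incubation medium replicate 4 among the fits that left out a library (-0.63, adjusted p = 0.0274; main value -0.46, adjusted p = 0.096). The ligand receptor CD40 (ENSSSCG00025070155), which drives costimulation, had 9.57 to 12.5, 8.88 to 16.4 and 10.9 to 13.2 CPM in the 3 groups and was not called (0.18, 0.15 and -0.03). The checkpoint ligand CD274 (ENSSSCG00025035721), also known as PD-L1, had 2.90 to 5.13, 3.28 to 4.44 and 1.97 to 5.34 CPM and was not called either (-0.14, SE 0.31; -0.29, SE 0.32; -0.15, SE 0.31).

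**Figure D2:**
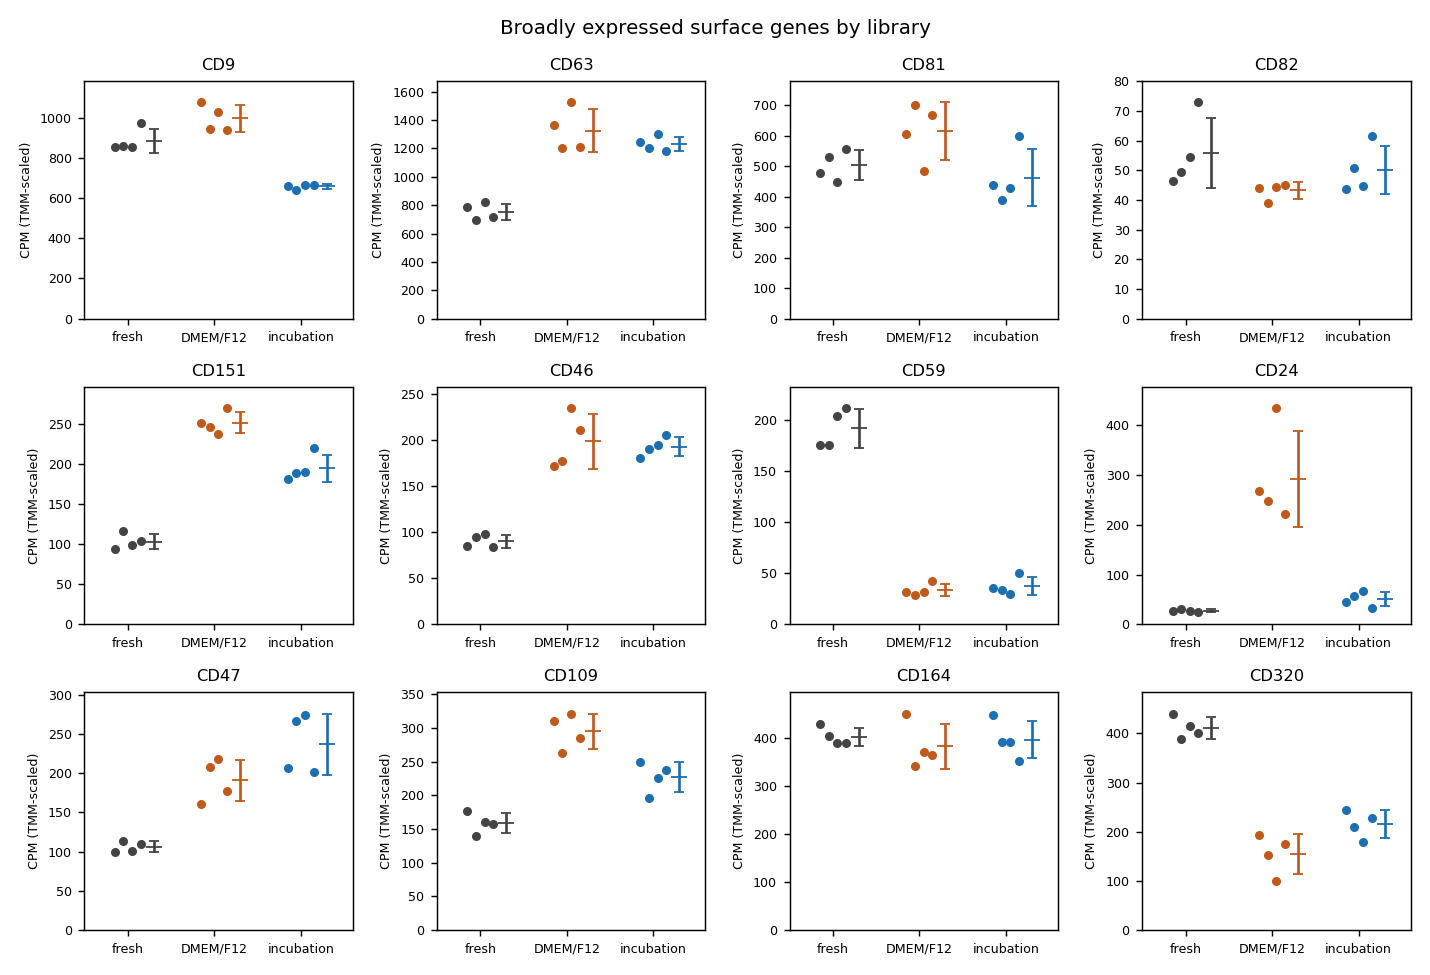
TMM-scaled CPM (y axes, from 0, each gene with its own scale) of 12 broadly expressed surface genes in the 4 libraries of each group (points, replicates 1 to 4 from left to right), with the mean and SD beside them. CD151, CD24 and CD109 separate all 3 groups, CD59 and CD320 are below the fresh cells in both media, and CD164 overlaps throughout.

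Of 8 tested pan-leukocyte members, 4 fell, 1 rose and 3 were not called in DMEM/F12, and 6 fell and 2 were not called in incubation medium. Of all genes, 35.7% were lower and 35.1% higher in DMEM/F12, and 35.8% were lower in incubation medium. In bulk RNA, fewer cells of a type and less RNA per cell cannot be told apart. PTPRC (ENSSSCG00025029706), the phosphatase CD45 carried by all nucleated blood cells, was at 8.53, 5.74, 7.29 and 6.47 CPM in fresh cells. It was at 2.43, 3.37, 2.91 and 1.44 CPM in DMEM/F12 and at 1.31, 2.07, 1.11 and 0.269 CPM in incubation medium, the last resting on 2 counts. Every spheroid library lay below every fresh one (-1.46, SE 0.34, adjusted p = 0.00151, and -2.52, SE 0.38, adjusted p = 3.19e-05). The media were not called different for PTPRC (-1.06, SE 0.4, adjusted p = 0.0678). They were with the replicate block (-1.07, adjusted p = 0.0312), with DESeq2 (-1.07, adjusted p = 0.0387) and with library totals (-1.15, adjusted p = 0.0493). The same held when DMEM/F12 replicate 4 (-1.25, adjusted p = 0.041) or incubation medium replicate 2 (-1.46, adjusted p = 0.0268) was left out (range over alternatives 0.0268 to 0.176).

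TYROBP (ENSSSCG00025058890), the signalling adaptor DAP12 of myeloid and natural killer cells, was at 15.8, 13.6, 9.16 and 16.9 CPM in fresh cells. It was at 7.42, 8.25, 3.57 and 3.12 CPM in DMEM/F12 and at 2.39, 6.54, 2.09 and 1.61 CPM in incubation medium, below every fresh library. It fell by 1.30 (SE 0.38, adjusted p = 0.00714) and by 2.14 (SE 0.41, adjusted p = 0.000292) on the log2 scale, the latter being -2.74 without incubation medium replicate 2. The media were not called different (-0.84, adjusted p = 0.168) except without that library (-1.45, adjusted p = 0.0169) or replicate 2 of both groups (-1.20, adjusted p = 0.0489; range over alternatives 0.0169 to 0.401).

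FCER1G (ENSSSCG00025004765), the common gamma chain of Fc receptors, was at 13.8, 15.8, 8.98 and 12.3 CPM in fresh cells, 8.51, 14.5, 6.35 and 4.44 in DMEM/F12 and 4.53, 10, 4.68 and 1.61 in incubation medium. Replicate 2 overlapped the fresh cells in both media. FCER1G fell in incubation medium by 1.29 (SE 0.43, adjusted p = 0.0141). It was not called in DMEM/F12 (-0.58, adjusted p = 0.212) except with the replicate block (-0.66, adjusted p = 0.021) or without replicate 2 of both spheroid groups (-0.96, adjusted p = 0.0175; range over alternatives 0.0175 to 0.457). The media were called different only with the replicate block among the alternatives run (-0.71, adjusted p = 0.0439, range 0.0439 to 0.663; main value -0.71, adjusted p = 0.254).

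The other low leukocyte members, named after their values were seen, were CD53, CD37 and CD48. CD53 (ENSSSCG00025065051), a leukocyte tetraspanin, had 7.89 to 11.7 CPM in fresh cells, 2.40 to 6.97 in DMEM/F12 and 0.537 to 6.41 in incubation medium. It fell in incubation medium (-1.77, adjusted p = 0.00403; -2.58 without replicate 2 there), and was not called in DMEM/F12 (-0.93, adjusted p = 0.0768) except with the replicate block (-1.0, adjusted p = 0.0159), without replicate 2 of both groups or with the groups compared alone (range over alternatives 0.0119 to 0.194). CD37 (ENSSSCG00025043333), another leukocyte tetraspanin, fell from 2.12 ± 0.517 CPM to 0.848 ± 0.306 and 0.352 ± 0.307 (-1.29 and -2.54, adjusted p = 0.0165 and 0.000453). The second was -3.18 without incubation medium replicate 3. The first was lost in 2 of 8 fits, without fresh replicate 3 (-1.13, adjusted p = 0.0568) and without DMEM/F12 replicate 4 (-1.14, adjusted p = 0.0511; range over alternatives 0.00442 to 0.0568). CD48 (ENSSSCG00025001845), the ligand of CD244, was at 1.79 ± 0.362, 1.48 ± 0.681 and 0.755 ± 0.631 CPM. It was called in incubation medium (-1.26, adjusted p = 0.0423), a call kept only without fresh replicate 3 or incubation medium replicate 2 (-1.90 there) among the 8 fits that left out a library. Between the media these genes were not called, except when 1 incubation medium library was left out: replicate 2 for CD53 (-1.66, adjusted p = 0.0141) and CD48 (-1.65, adjusted p = 0.0415), and replicate 3 for CD37 (-1.90, adjusted p = 0.0459). CD53 was also called without replicate 2 of both groups (-1.44, adjusted p = 0.0414).

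The summed CPM of PTPRC, TYROBP, FCER1G, CD53, CD37 and CD48, a set chosen after their values were seen, was 53.1, 47.3, 38.3 and 48.6 in fresh cells. It was 27.5, 36.1, 18.5 and 13.1 in DMEM/F12 and 10, 27, 11.4 and 5.10 in incubation medium. Replicate 2 was the highest library for 5 of the 6 genes in each medium, and replicate 4 the lowest for 5 in DMEM/F12 and for 4 in incubation medium.

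CD74 and CORO1A, which were on the same list, did not follow these genes. CD74 (ENSSSCG00025069228), the invariant chain that guides MHC class II molecules, was at 1941, 2040, 1856 and 2158 CPM in fresh cells and at 1507, 1549, 1767 and 1711 in DMEM/F12, below every fresh library. In incubation medium it was at 2155, 2107, 1962 and 2210 CPM, within or just above the fresh range. It fell in DMEM/F12 by 0.29 (SE 0.08, adjusted p = 0.00424), was not called in incubation medium (0.08, SE 0.08, adjusted p = 0.393) and differed between the media by 0.37 (SE 0.08, adjusted p = 0.00358). The cytokine MIF, a ligand of CD74, rose from 245 ± 10.3 CPM to 565 ± 37.7 and 878 ± 213, and the protease CTSS, which trims the invariant chain, from 38.3 ± 3.09 to 56.2 ± 14.1 and 102 ± 6.35. Both were called in all 3 comparisons, and were higher in incubation medium than in DMEM/F12 (0.64, adjusted p = 0.00326, and 0.85, adjusted p = 0.000649).

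CORO1A (ENSSSCG00025066106), an actin-binding protein of leukocytes, was at 3.83, 3.05, 3.55 and 4.70 CPM in fresh cells. It rose to 13.6, 19.9, 16.1 and 12 CPM in DMEM/F12, above every other library (2.03, SE 0.21, adjusted p = 9.26e-07). In incubation medium it was at 4.06, 5.47, 4.68 and 3.36 CPM, overlapping the fresh cells (0.22, adjusted p = 0.411), and the media differed by -1.81 (SE 0.2, adjusted p = 2.53e-05).

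**Figure D3:**
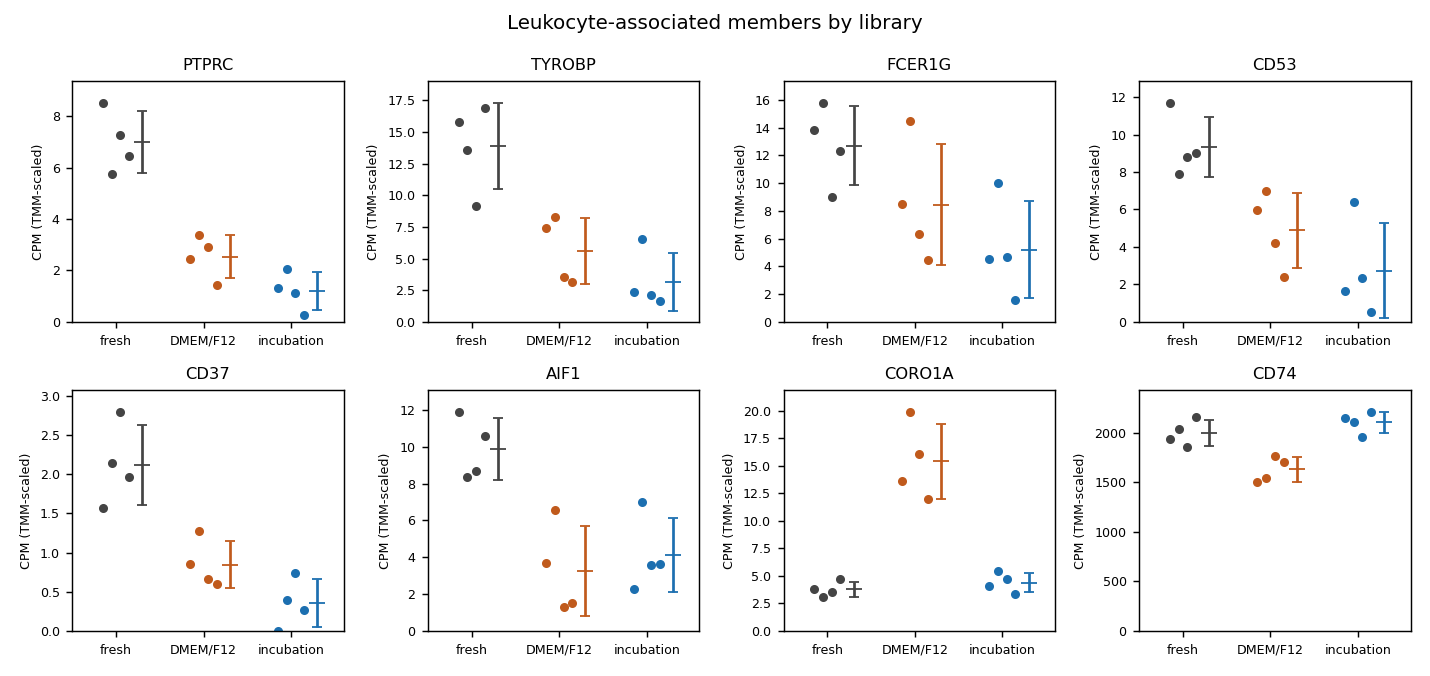
TMM-scaled CPM (y axes, from 0, each gene with its own scale) of 8 leukocyte-associated members in the 4 libraries of each group (points, replicates 1 to 4 from left to right), with the mean and SD beside them. PTPRC, TYROBP, CD53, CD37 and AIF1 lie below the fresh cells in every spheroid library, CORO1A is raised in DMEM/F12 alone, and CD74 is lower in DMEM/F12 than in the other groups.

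Of 30 listed leukocyte genes outside the rule, 16 were tested; 2 rose and 8 fell in DMEM/F12, 2 rose and 11 fell in incubation medium, and 1 was higher in incubation medium than in DMEM/F12. That gene was RAC2, a small GTPase of blood cells, at 37.9 ± 4.56, 28.2 ± 3.92 and 82.6 ± 17.2 CPM (1.55, adjusted p = 9.29e-06). Against fresh cells RAC2 fell in DMEM/F12 (-0.42, adjusted p = 0.0217) and rose in incubation medium (1.12, adjusted p = 8.61e-06). The genes given here are those of highest mean CPM, and no other tested gene on the list was called higher than in fresh cells. The macrophage complement gene C1QA was at 33.1 ± 6.96, 20 ± 11 and 15.6 ± 8.64 CPM and fell in incubation medium (-1.09, adjusted p = 0.0261). VAV1 rose in both media (0.66 and 1.06, adjusted p = 0.00157 and 2.21e-05). ARHGDIB rose in DMEM/F12 (0.54, adjusted p = 0.0418) and was not called in incubation medium (0.08, adjusted p = 0.77).

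Myeloid members moved in both directions: 2 of 6 tested rose and 2 fell in each medium. TYROBP and FCER1G, counted above with the pan-leukocyte members, are also on a list of 6 myeloid markers. With AIF1 and CD14 they were the 4 with a row. Of these 4, 0 rose and 2 fell in DMEM/F12, and 0 rose and 3 fell in incubation medium. Their CPM summed to 28.3 to 45.9 in fresh cells, 11.7 to 33.2 in DMEM/F12 and 9.54 to 28.5 in incubation medium. CD86 (ENSSSCG00025023915), a costimulatory ligand of antigen-presenting cells, was at 18.8, 16.9, 19.6 and 16.7 CPM in fresh cells. It was at 29.1, 26.1, 24.3 and 25.8 CPM in DMEM/F12 and at 35.7, 30.6, 30.8 and 34.0 CPM in incubation medium, with no overlap between any groups. It rose by 0.55 (SE 0.1, adjusted p = 0.000177) and 0.86 (SE 0.1, adjusted p = 2.21e-06). The media differed (0.31, SE 0.09, adjusted p = 0.0234), though the call was kept only without DMEM/F12 replicate 1 or incubation medium replicate 2 or 3 among the 8 fits that left out a library, and was lost with scaling to library totals (0.22, adjusted p = 0.121, range over alternatives 0.0144 to 0.121).

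AIF1 (ENSSSCG00025077748), a calcium-binding protein of macrophages, was at 11.9, 8.34, 8.69 and 10.6 CPM in fresh cells, 3.71, 6.56, 1.32 and 1.5 in DMEM/F12 and 2.27, 7.01, 3.57 and 3.63 in incubation medium. Replicate 2 was again highest in each medium, and every spheroid library lay below the fresh ones (-1.59, SE 0.42, adjusted p = 0.00398, and -1.26, SE 0.42, adjusted p = 0.0140). CD302 (ENSSSCG00025027764), a C-type lectin receptor of phagocytes named after its values were seen, fell from 3.36 ± 1.25 to 1.01 ± 0.251 and 0.924 ± 0.264 CPM (-1.73 and -1.85, adjusted p = 0.000263 and 0.000166).

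CD209 (ENSSSCG00025014955), the C-type lectin DC-SIGN of dendritic cells and macrophages, also named after its values were seen, had 0 counts in each of the 4 fresh libraries. It had 22, 30, 11 and 7 counts in DMEM/F12 and 6, 13, 6 and 5 in incubation medium. Against a floor of 3 counts per fresh library it was at least 3.83-fold higher in DMEM/F12 (adjusted p = 0.000196) and at least 1.75-fold higher in incubation medium (adjusted p = 0.00213). The media were called different only with the replicate block (-1.12, adjusted p = 0.0208) and without DMEM/F12 replicate 4 (-1.40, adjusted p = 0.0484; range over alternatives 0.0208 to 0.316).

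CD14 (ENSSSCG00025051762), the coreceptor for bacterial lipopolysaccharide, had 1.5 to 4.35 CPM in fresh cells, 2.64 to 3.83 in DMEM/F12 and 2.69 to 5.61 in incubation medium. It was not called in incubation medium (0.76, adjusted p = 0.0502) except with the replicate block (0.77, adjusted p = 0.0122), when fresh replicate 1 (1.11, adjusted p = 0.00963) or incubation medium replicate 4 (0.95, adjusted p = 0.0143) was left out, with library totals (adjusted p = 0.0498) and with no filter (adjusted p = 0.0397; range over alternatives 0.00963 to 0.143). Its partner LY96 rose from 32.2 ± 4.19 CPM to 81.8 ± 9.57 and 94.3 ± 4.66 (1.35 and 1.55, adjusted p = 7.18e-08 and 1.83e-08). MS4A7 (ENSSSCG00025035307), a macrophage membrane protein, had 0.841 to 3.05, 0.728 to 5.46 and 0.537 to 3.34 CPM and was not called. With the replicate block MS4A7 was higher in DMEM/F12 than in fresh cells (0.94, adjusted p = 0.0346, range over alternatives 0.0346 to 0.487) and lower in incubation medium than in DMEM/F12 (-1.02, adjusted p = 0.0368, range 0.0368 to 0.586).

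Only 3 of 13 T and natural killer cell members were tested, and with all 12 libraries and no block none was called in any comparison. NKG7 (ENSSSCG00025020723), a cytotoxic granule protein, was at 1.91, 3.59, 2.43 and 3.72 CPM in fresh cells, 6.20, 9.41, 3.31 and 2.28 in DMEM/F12 and 2.03, 6.27, 0.492 and 0.672 in incubation medium. Replicate 2 was highest in both media. The media were called different for NKG7 with the replicate block (-1.26, adjusted p = 0.0218), without incubation medium replicate 2 (-2.28 at adjusted p = 0.0111) and without replicate 2 of both groups (-1.85, adjusted p = 0.0310; range over alternatives 0.0111 to 0.457), but not with all libraries and no block (-1.18, adjusted p = 0.173). NKG7 was also lower in incubation medium than in fresh cells without replicate 2 of both groups (-1.40, adjusted p = 0.0309), beside -0.31 (adjusted p = 0.693) with them. The protease GZMK (ENSSSCG00025059704) had 0.935 to 2.09, 1.20 to 1.59 and 1.07 to 2.09 CPM.

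The T cell receptor chain CD3G (ENSSSCG00025009234) had 21.1 to 24.1, 22.6 to 29.5 and 19.8 to 24.2 CPM in the 3 groups (0.16, 0.01 and -0.15; adjusted p = 0.191, 0.95 and 0.317). Its partner chains CD3E and CD3D, its neighbours in the RefSeq annotation of Sscrofa11.1, had at most 13.5 and 10 counts in any library, so the CD3G row did not follow them. Counts of CD3G were not whole in 6 of 12 libraries, as arises when a read is shared between features, and its level is uncertain. The next gene on its other side is UBE4A, for which no row was matched by symbol, and whether reads of a neighbouring gene are counted in the CD3G row was not tested. Counts were also not whole in 9 libraries for CD38, 8 for CD164 and 7 each for AIF1 and CD200, so the levels of these genes carry the same limit.

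Further T cell, mast cell and activation genes were too low for the filter and are given as counts. CD69, an early activation antigen, had 6, 8, 6 and 7 counts in fresh cells, at most 1 in DMEM/F12 and 0 in every incubation medium library. CD3E had 7, 6, 4 and 13.5 counts in fresh cells and at most 4 in any spheroid library. CD8A, the coreceptor of cytotoxic T cells, had 5, 1, 12 and 8 counts in fresh cells and at most 2 in any spheroid library. MS4A2, the beta chain of the mast cell IgE receptor, had 5, 2, 10 and 4 counts in fresh cells and at most 2 in the spheroids. With no filter, 8 of the members left untested above were lower in DMEM/F12 than in fresh cells, and 9 were lower and 1 higher in incubation medium. These include genes of other kinds, such as TEK and CD177. The share of all genes called in that fit was not taken, so nothing particular to the members is read from these counts. CD69 (adjusted p = 6.18e-05 and 2.1e-05) had the smallest p among them in both. The ectoenzyme CD38, which degrades NAD, had 22.17, 22.5, 9.83 and 5.5 counts in incubation medium, at most 3.5 in DMEM/F12 and at most 5.5 in fresh cells, and was higher in incubation medium than in DMEM/F12 without the filter (2.56, adjusted p = 0.00334).

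The B cell members did not behave as a set. CD79B (ENSSSCG00025039953), a signalling chain of the B cell receptor, had 1, 3, 3 and 2 counts in fresh cells, 24, 46, 32 and 22 in DMEM/F12 and 16, 17, 19 and 21 in incubation medium. Set against a floor of 3 counts per fresh library, CD79B was 6.85-fold (adjusted p = 4.1e-06) and 4.23-fold higher (adjusted p = 7.61e-05). Its fresh counts were above 0, so these folds are not strict lower limits. The media were not called different for CD79B (-0.70, adjusted p = 0.0734) except with the replicate block (-0.67, adjusted p = 0.0409), scaling to library totals or without DMEM/F12 replicate 4 (-0.84, adjusted p = 0.0481; range over alternatives 0.0409 to 0.352). The B cell antigen MS4A1, or CD20, had at most 1 count in any library, and CD22 at most 2.

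CD79A (ENSSSCG00025072883), the other signalling chain, was at 481, 437, 440 and 469 CPM in fresh cells, 409, 410, 474 and 459 in DMEM/F12 and 541, 527, 497 and 598 in incubation medium. It was not called in DMEM/F12 (-0.06, adjusted p = 0.513) and was higher in incubation medium than in fresh cells (0.24, adjusted p = 0.0146) and than in DMEM/F12 (0.30, adjusted p = 0.0132). Without replicate 2 of both spheroid groups the latter was not called (0.29, adjusted p = 0.0748; range over alternatives 0.000701 to 0.0748). Its counts were not whole in 11 of 12 libraries. In the RefSeq annotation of Sscrofa11.1 the next gene is RPS19, a ribosomal protein gene, for which no row was matched by symbol. The 61 tested ribosomal protein genes had median log2 fold changes of -0.30, 0.20 and 0.48 in the 3 comparisons, and whether reads of a neighbouring gene are counted in the CD79A row was not tested.

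Endothelial members split: KDR rose and PECAM1 and PLVAP fell in both media, and VWF had at most 1 count in any library. KDR (ENSSSCG00025038827), a receptor of vascular endothelial growth factor, was at 12.2, 28.9, 21.3 and 21.4 CPM in fresh cells. It was at 119, 63.5, 47.0 and 66.6 CPM in DMEM/F12 and at 54.9, 51.8, 33.6 and 102 CPM in incubation medium, above every fresh library, with replicate 3 lowest in both media. It rose by 1.83 (SE 0.36, adjusted p = 0.000365) and 1.53 (SE 0.36, adjusted p = 0.00149), and the media were not called different (-0.29, SE 0.33, adjusted p = 0.555).

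PECAM1 (ENSSSCG00025043405), an adhesion molecule of endothelial junctions that leukocytes and platelets also carry, was at 15.5, 14.8, 16.1 and 14.1 CPM in fresh cells. It was at 8.15, 8.89, 6.48 and 8.22 CPM in DMEM/F12 and at 7.58, 8.74, 7.14 and 8.66 CPM in incubation medium, below every fresh library. It fell by 0.93 (SE 0.13, adjusted p = 2.01e-05) and by 0.91 (SE 0.13, adjusted p = 2.48e-05), and 6 of 12 libraries held counts that were not whole. PLVAP (ENSSSCG00025015774), a protein of the diaphragms of endothelial fenestrae named after its values were seen, had 15.5, 15, 9 and 17 counts in fresh cells, 1, 6, 4 and 0 in DMEM/F12 and 2, 2, 2 and 1 in incubation medium. It fell by 2.90 on the log2 scale in DMEM/F12 (adjusted p = 0.000131, and -3.53 without DMEM/F12 replicate 2). Set against a floor of 3 counts per library, PLVAP was 6.80-fold lower in incubation medium (adjusted p = 5.33e-05). Its counts there were above 0, so this fold is not a strict lower limit.

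TIE1 (ENSSSCG00025060775), an endothelial receptor kinase, was at 3.83, 3.59, 4.67 and 2.74 CPM in fresh cells, 4.87, 5.46, 4.10 and 6.12 in DMEM/F12 and 6.20, 5.07, 6.15 and 14.2 in incubation medium. It rose in incubation medium (1.08, SE 0.32, adjusted p = 0.00686), by 0.66 (adjusted p = 0.0146, range over alternatives 0.00256 to 0.0235) without replicate 4 there, and was not called in DMEM/F12 (0.47, adjusted p = 0.211). The junction protein ESAM (ENSSSCG00025007159) had 2, 1, 3.5 and 7 counts in fresh cells, 8 to 13 in DMEM/F12 and 9 to 16 in incubation medium. It was called in incubation medium (1.24, adjusted p = 0.0194), a call lost in 2 of 8 fits without a library, without fresh replicate 1 (1.04, adjusted p = 0.0616) and without fresh replicate 2 (0.94, adjusted p = 0.0639), and was 1.85 (adjusted p = 0.00253) without fresh replicate 4. In DMEM/F12 ESAM was called only without fresh replicate 4 (1.5, adjusted p = 0.011, range over alternatives 0.011 to 0.24; main value 0.90, adjusted p = 0.0866).

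Untested for low counts, VWF, the clotting protein stored in endothelial granules, had 0 counts in 9 libraries and 1 in 3 of the incubation medium libraries, and the receptor TEK had 6 to 11 counts in fresh cells and 1 to 6 in the spheroids. Of 20 listed endothelial genes outside the rule, 7 were tested; 2 rose and 3 fell in DMEM/F12, 1 rose and 3 fell in incubation medium, and 3 were lower in incubation medium than in DMEM/F12. The vascular cadherin CDH5 rose from 11.4 ± 3.25 to 108 ± 53.0 and 43.0 ± 9.03 CPM (3.24 and 1.91, adjusted p = 8.4e-07 and 0.00014), and the media differed (-1.33, adjusted p = 0.00387). RAMP2, a coreceptor of adrenomedullin, fell from 45.1 ± 13.7 to 18.8 ± 3.90 and 10.5 ± 3.43 CPM (-1.26 and -2.11, adjusted p = 0.000192 and 2.37e-06). SOX17 fell in both media (-0.37 and -0.29, adjusted p = 0.0158 and 0.0486). TM4SF1 rose in DMEM/F12 (0.89, adjusted p = 0.0016) and was not called in incubation medium (-0.15, adjusted p = 0.548).

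**Figure D4:**
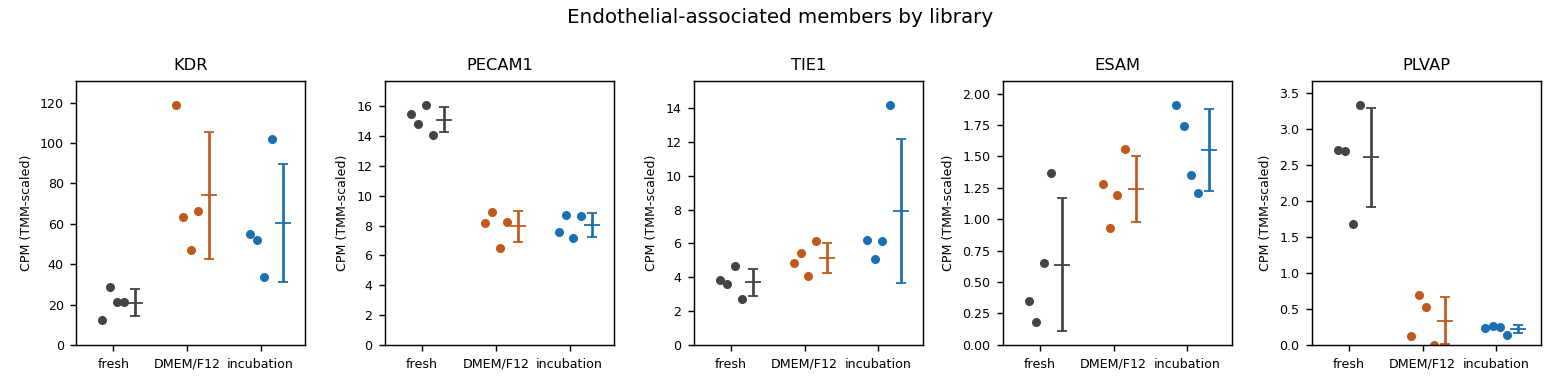
TMM-scaled CPM (y axes, from 0, each gene with its own scale) of the 5 tested endothelial members in the 4 libraries of each group (points, replicates 1 to 4 from left to right), with the mean and SD beside them. KDR is above the fresh cells in every spheroid library, PECAM1 and PLVAP are below them, and 1 incubation medium library stands high for TIE1.

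Of the 31 members that were not tested, 17 never exceeded 3 counts in a library, which is the limit that a count of 0 allows. CD248, MS4A5 and MS4A8B had 0 counts in all 12 libraries. CD207, CD226, CD27, CD28, CD1E, CD5L, CD163L1, GZMM, MS4A12, MS4A13 and MS4A14 had at most 3, and CD80, CD84, CD96, CD177, CD180 and CD244 at most 11. Of the genes in these lists, the test without the filter called CD177 lower in both media (adjusted p = 0.00061 and 0.0347), CD96 in DMEM/F12 (adjusted p = 0.037), and CD84 (adjusted p = 0.0208) and GZMM (adjusted p = 0.039) in incubation medium. Of the 11 calls between the media, 7 were kept in every fit that left out 1 library, those of CD24, CORO1A, CD9, CD151, CD109, CD74 and CD79A. Against fresh cells, 22 of 25 calls in DMEM/F12 and 26 of 28 in incubation medium were kept in every such fit. Of the tested members, 10 rose and 11 fell in both media, 1 (CD9) rose in DMEM/F12 and fell in incubation medium, and 9 were called in neither.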

How the data were processed

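The authors deposited 1 table that holds an expected count and a CPM value for each gene in each library, per the file headers. The submitters' processing notes name fastp 0.24.0, STAR 2.7.11, SAMtools 1.22.1 and featureCounts (Subread 2.1.1); settings, strand use and genome build are not given in the sources used here. Between 19.1 and 20.5% of nonzero deposited counts per library were fractional. Raw counts had been planned for, and the expected counts were therefore rounded before modelling. The 92 spike-in rows (at most 0.000614% of a library) were left out.

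Libraries were grouped by title and treatment label. Gene tests came from quasi-likelihood models in edgeR 4.0.16 (R 4.3.3), with low genes removed by filterByExpr, TMM scaling, a single fit of all 12 libraries and Benjamini-Hochberg adjustment over 14070 genes; the script was checked on simulated data. Printed CPM use TMM-scaled library sizes and differ from the deposited CPM. Values are given for PTPRC, for tested members with a mean of at least 20 CPM and for up to 4 per role group by mean CPM; others are marked as named after their values were seen, untested members included. Members, lists and rules were chosen with earlier results of these data known. Same-numbered libraries deviated together from their group means (correlation across genes 0.196 to 0.516 over the 12 pairs, each library best with its own number). The main fit and its adjusted p-values hold the group only and do not use this pairing. The numbers pair the libraries only in the replicate block, and the labels do not say what a number marks. Alternatives were DESeq2 1.42.0, other scalings and filters, whole counts only, the groups compared alone, the replicate block, leaving out each library and, chosen after seeing the data, leaving out replicate 2 of both spheroid groups. Floors are 3 counts per library and cover counting error only. The values of 1 untested member are not reported here.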

Additional observations from a re-analysis of the deposited data

Results flagged for a closer look

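In 120 sets of 4 libraries (40 members, 3 groups), 5 had a library far from the other 3; chance flags about 1 in 20 such sets. TIE1 was at 14.2 CPM in incubation medium replicate 4 and at 5.07 to 6.20 in the others. TYROBP was at 6.54 CPM in incubation medium replicate 2 and at 1.61 to 2.39 in the others. CD209 was at 1.74 CPM in the same library and at 0.672 to 0.738 in the others. CD9 was at 973 CPM in fresh replicate 4 and at 854 to 861 in the others, and CD82 at 38.9 CPM in DMEM/F12 replicate 2 and at 44.2 to 45.1 in the others.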

How the results depend on the processing

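Restricting the test to members with whole counts in every library left 17 members, of which 6 were higher and 3 lower in DMEM/F12 than in fresh cells, 6 higher and 5 lower in incubation medium, and 1 higher and 1 lower between the media. With no filter on low counts, 20 members were lower in DMEM/F12 and 23 in incubation medium, as more members were tested. Between the media, 2 members were higher with library totals, 3 with only the groups compared and 1 without replicate 2 of both spheroid groups, and 12 were lower with the replicate block. The block changed no call beyond those printed beside the results. Leaving out 1 library at a time gave 3 to 4 members higher and 5 to 10 lower between the media, 10 without incubation medium replicate 2. The other counts stayed within 1.5 times those reported. Among these alternatives, shares of all genes were taken only for the replicate block and without replicate 2 of both spheroid groups. Nothing particular to the members is read from the other counts.

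Signs that reversed were not called on either side. In DMEM/F12 against fresh cells these were CD164 (0.0016) and CD79A (0.01) with library totals, and CD79A (0.01) with no filter. In incubation medium against fresh cells they were CD164 (0.04) and MS4A7 (0.02) with no filter, CD3G with library totals (-0.0096) and a mean of at least 10 counts (-0.02), and CD164 (0.00032) and CD3G (-0.0022) without replicate 2 of both groups. Between the media they were CD164 (-0.04), PECAM1 (-0.08) and GZMK (-0.07) with library totals, and CD40 (0.09) and PLVAP (9.8e-05) without replicate 2 of both groups. Leaving out 1 library, log2 fold changes in incubation medium against fresh cells ran from -0.07 to 0.05 for CD164, -0.74 to 0.59 for MS4A7, -0.02 to 0.08 for CD3G, -1.40 to 0.05 for NKG7 and -0.25 to 0.001 for CD82. Between the media they ran from -0.01 to 0.14 for CD164, -0.1 to 0.05 for CD46, -0.02 to 0.29 for CD59, -0.16 to 0.13 for CD40, -0.43 to 0.05 for CD274, -0.66 to 0.03 for KDR, -0.06 to 0.08 for PECAM1, -0.96 to 0.09 for PLVAP, -0.05 to 0.92 for AIF1, -0.27 to 0.03 for CD302 and -0.23 to 0.13 for GZMK. The causes were not tested. Depth limits the 31 untested members.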
